A study of Mus musculus with 24 samples.

Results

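Transcripts of 9 genes that carry the interferon signal were followed in ID8 mouse ovarian cancer cells: the chains of the type I interferon receptor (Ifnar1 and Ifnar2) and of the interferon gamma receptor (Ifngr1 and Ifngr2), the kinases Jak1 (of both receptors) and Tyk2 (of the type I receptor), the transcription factors Stat2 and Irf9 of ISGF3, and the feedback inhibitor Socs1. The genes were taken by symbol from the deposited table of read counts, in which they are 9 of 25229 gene symbols, and each was found once. All 24 libraries came from ID8 P53 KO cells, a single mouse line that carries a knockout of p53, so the controls carry it too. The cells were cultured for 6 days with DMSO, with cisplatin at 750 nM, with AU-15330 (AU15330 in the labels) at 2.5 uM, or with both drugs at those doses, and each treatment has 6 libraries. The doses are those of the labels, and the study's methods name another cisplatin concentration for this line. AU-15330 is a PROTAC, a molecule that directs a protein to degradation. Per the study, it degrades both SMARCA4, an ATPase of the chromatin remodeler SWI/SNF, and the related protein SMARCA2. The separate part of each protein in the effects of AU-15330 was not tested. Cisplatin is a platinum drug that damages DNA. No label says that replicates of a treatment were separate cultures, so the p-values measure the spread between these libraries, which may be technical.

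Type I interferons bind a receptor made of IFNAR1 and IFNAR2, on which the kinases TYK2 and JAK1 are held. The kinases phosphorylate STAT proteins, and STAT2 joins IRF9 in the complex ISGF3, which binds interferon-stimulated response elements in the promoters of antiviral genes. Interferon gamma binds IFNGR1 and IFNGR2 and leads to STAT dimers that bind gamma-activated sites. SOCS1 is made in response to both signals and blocks the JAK kinases, and genes for STAT2 and IRF9 are themselves known interferon targets.

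Ifnar2, Ifnar1 and Ifngr2 lie in 1 cluster of receptor genes, chr16:91372783-91565623 (GRCm38, which is mm10, with genes as in GENCODE M21), which spans 192.8 kb and holds 5 protein-coding genes, all on the plus strand. Socs1 lies elsewhere on the same chromosome, at chr16:10782240-10785536 on the minus strand. Stat2 (chr10:128270559-128292849) and Ifngr1 (chr10:19591949-19610229) share a chromosome and are on the plus strand. Irf9 is at chr14:55603571-55610030 on the plus strand, Jak1 at chr4:101152367-101265282 and Tyk2 at chr9:21104068-21131243, both on the minus strand. Reads could be shared where exons of genes overlap: 123 exonic bases of Irf9 overlap Rnf31 and 315 of Ifnar2 overlap Gm21970 on the same strand, and 554 of Tyk2 lie opposite an antisense gene. The strand setting of the counting is not given in the sources used here, so the Tyk2 counts may include antisense reads.

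The 250 bases before the RefSeq start of each gene (GRCm38.p6) were searched on both strands for the core of the interferon-stimulated response element, GAAANNGAAA, and for the gamma-activated site, TTCNNNGAA, since these are the letters that ISGF3 and STAT dimers bind. The 3 genes with a match are printed in the direction of transcription, ending at the base before the start, with the matching letters in capitals. The Stat2 window is chr10:128270248-128270497 (plus strand), that of Socs1 chr16:10785537-10785786 (minus strand) and that of Ifnar2 chr16:91372533-91372782 (plus strand).
Stat2: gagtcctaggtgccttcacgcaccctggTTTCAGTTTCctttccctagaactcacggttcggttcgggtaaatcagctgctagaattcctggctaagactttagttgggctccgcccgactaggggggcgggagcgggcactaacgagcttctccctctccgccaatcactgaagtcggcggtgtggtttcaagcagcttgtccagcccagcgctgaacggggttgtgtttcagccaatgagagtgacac
Socs1: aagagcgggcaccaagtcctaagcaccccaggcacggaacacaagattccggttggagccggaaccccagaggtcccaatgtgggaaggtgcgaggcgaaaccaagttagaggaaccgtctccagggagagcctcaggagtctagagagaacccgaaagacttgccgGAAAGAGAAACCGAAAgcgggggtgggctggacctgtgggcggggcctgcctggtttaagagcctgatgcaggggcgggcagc
Ifnar2: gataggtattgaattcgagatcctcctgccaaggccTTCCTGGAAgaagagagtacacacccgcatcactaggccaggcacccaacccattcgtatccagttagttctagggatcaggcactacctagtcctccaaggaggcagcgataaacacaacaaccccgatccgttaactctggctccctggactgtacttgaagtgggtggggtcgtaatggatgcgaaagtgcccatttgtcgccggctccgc
Stat2 holds the response element core on the opposite strand, 222 to 213 bases before its start. Socs1 holds 2 matches that overlap each other, at 83 to 74 and at 77 to 68 bases. Ifnar2 holds the gamma-activated site, 214 to 206 bases before its start. For comparison, 2.98% of 32851 mouse promoter windows of this length hold the response element core and 7.02% hold the gamma-activated site. Neither was in the 2 windows of Irf9 or in those of Ifnar1, Ifngr1, Ifngr2, Jak1 and Tyk2. The Irf9 windows (chr14:55603735-55603984 and chr14:55604329-55604578) both lie inside the gene as placed by GENCODE. The bases before its GENCODE start at 55603571 were not searched. A match describes the sequence and is not a measured binding site.

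Library totals ran from 17592588 to 25260009 counts, so 3 counts, used as the floor, stood for 0.120 to 0.186 CPM, the count as a share of the library total scaled with TMM factors. The 9 genes all passed the low-count filter, with Socs1 the lowest at 31 to 36 counts in the DMSO libraries. Markers of ovarian surface epithelium and mesothelium, listed for this ovarian cancer line, had summed levels of 3512 to 5308 CPM in DMSO and 4174 to 4851 CPM with cisplatin. Krt7, in this list, had means of 0.032 CPM with AU-15330 and 0.075 CPM with both drugs, under the floor. With cisplatin 5 of the 7 were called higher, led by Upk3b (log2 2.13) and Krt7 (1.89), beside 26.0% of all tested genes. They fell with AU-15330 (7 of 7 lower, beside 37.2% of all tested genes), to 1018 to 1150 CPM alone and 1223 to 1403 CPM with cisplatin. The 3 fibroblast markers summed to 19.2 to 41.7 CPM in DMSO, 146 to 224 CPM with cisplatin, 44.9 to 69.7 CPM with AU-15330 and 48.4 to 81.1 CPM with both. The 3 endothelial markers summed to 2.87 to 4.28, 8.24 to 12.5, 0.261 to 0.715 and 0.483 to 1.10 CPM in the same order. The fibroblast sum was mostly Dcn (means of 31.5, 168, 58.9 and 60.4 CPM). Pdgfra and Lum had means of at most 3.21 and 0.951 CPM. The endothelial sum was mostly Pecam1 (means of 3.60, 10.2, 0.458 and 0.748 CPM). Cdh5 and Kdr had at most 3 and 1 counts in a library. The 7 leukocyte markers summed to 0 to 10 counts per library, and Ncr1 was at 0 in all 24 libraries. The part of these marker shifts in the results was not tested, and in bulk RNA fewer cells of a kind and less RNA per cell cannot be told apart.

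Cisplatin, set against DMSO, raised the transcription factors and the inhibitor and left most of the receptor and kinase transcripts within the test's error. By edgeR's quasi-likelihood test with Benjamini-Hochberg adjustment over 12941 genes (called at an adjusted p under 0.05), 5 of 9 genes were higher (Stat2, Irf9, Socs1, Ifngr1 and Ifngr2) and 0 lower, against 26.0% of all tested genes higher and 25.7% lower. At an unadjusted p under 0.05, and by DESeq2, 0 were lower too. The median log2 fold change was 0.17 over the 9 genes and -0.004 over all tested genes.

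AU-15330, set against the same DMSO libraries, also raised Stat2, Irf9 and Socs1, and raised Jak1, while Ifnar2 and Ifngr2 fell. These were 4 of 9 genes higher and 2 lower, where 36.2% of all tested genes were higher and 37.2% lower. The median over the 9 genes was 0.08, against -0.003 over all tested genes.

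Adding AU-15330 to cisplatin lowered Stat2, Ifnar2, Ifngr1 and Ifngr2 and raised Jak1 and Socs1. The 4 of 9 lower stand beside 32.7% of all tested genes, and the 2 higher beside 35.4%. Seen from the other side, both drugs against AU-15330, Irf9 and Socs1 were lower and Ifngr1 was higher, which is 2 of 9 lower beside 19.5% of all genes and 1 higher beside 22.2%. Both drugs against DMSO gave 4 of 9 higher (Stat2, Irf9, Socs1 and Jak1), beside 36.8%, and 2 lower (Ifnar2 and Ifngr2), beside 36.5%. Comparisons that share a group of libraries are not independent of each other.

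The interaction asks whether the effect of AU-15330 differed with and without cisplatin. It was negative for 4 of 9 genes (Stat2, Irf9, Socs1 and Ifngr1), where 15.8% of all tested genes were negative, and positive for 0, where 17.9% were positive, with 0 also at an unadjusted p under 0.05 and by DESeq2. For Stat2, Irf9 and Socs1 the interaction ran from -2.88 to -2.07 on the log2 scale, within the top 1.80% to 4.05% of all tested genes ranked by its size. The median over the 9 genes was -0.17, against 0.006 over all tested genes.

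**Figure D1:**
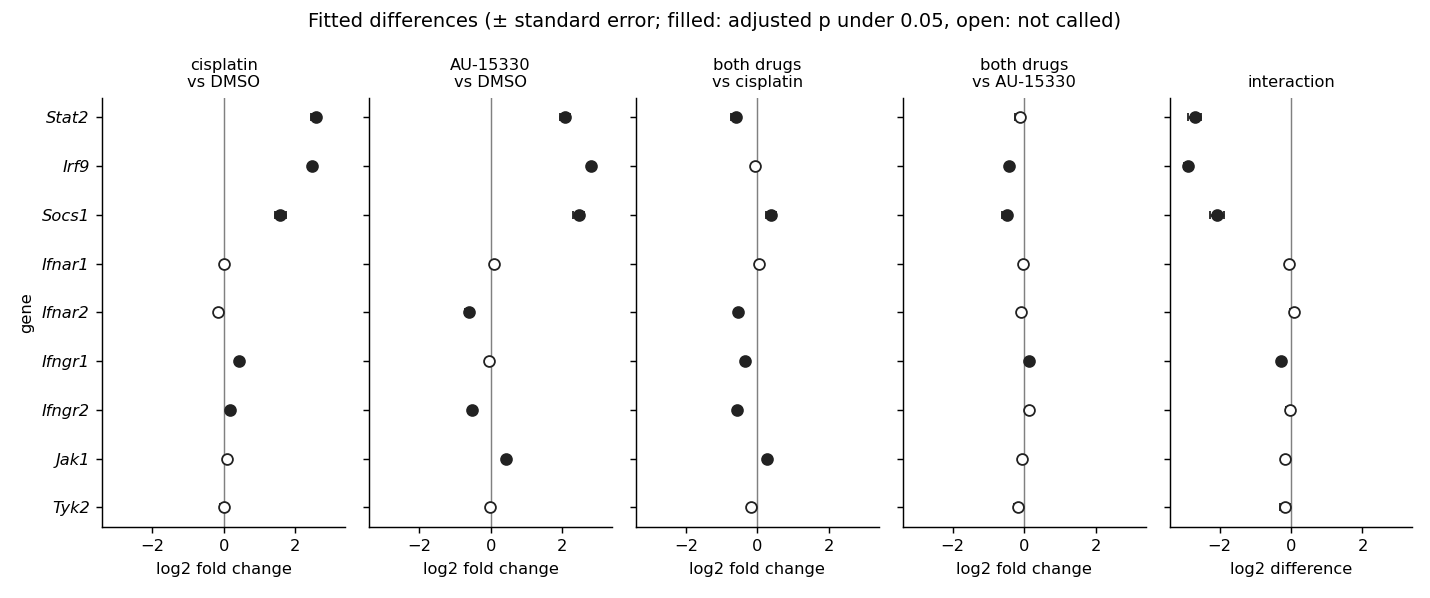
Fitted log2 fold changes of the 9 genes (x axis, ± standard error) in 4 comparisons of treatments and the log2 interaction of the drugs. Filled points passed an adjusted p of 0.05; Stat2, Irf9 and Socs1 lie far to the right for each drug against DMSO and far to the left in the interaction, and the other 6 genes stay within 0.62 of 0.

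Ifnar1, the receptor chain that holds TYK2, gave no call in any comparison. It ran from 101 to 123 CPM in DMSO (median 112), 99.1 to 120 with cisplatin (median 115), 109 to 124 with AU-15330 (median 120) and 111 to 117 with both drugs (median 115). The 4 groups overlap throughout, and the fitted change was 0.006 ± 0.057 (SE, log2) with cisplatin and 0.08 ± 0.057 with AU-15330, with edgeR adjusted p = 0.94 and 0.20. When libraries were scaled to their total counts alone, Ifnar1 was called higher than in DMSO with AU-15330 (0.21, adjusted p = 0.0013) and with both drugs (0.18, adjusted p = 0.0054), in a scaling that moved the median of all genes by 0.13 and 0.14.

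Ifnar2, the chain that binds interferon with high affinity and holds JAK1, fell with AU-15330. It ran from 58.1 to 82.3 CPM in DMSO (median 65.3) and 52.8 to 68.5 with cisplatin (median 60.4), and from 39.4 to 47.1 with AU-15330 (median 43.9) and 37.8 to 45.0 with both drugs (median 41.7). Every library with AU-15330 was below every library without it. The level was 1.54-fold lower with AU-15330 than with DMSO (log2 -0.62 ± 0.085, edgeR adjusted p = 3.3e-07) and 1.46-fold lower with both drugs than with cisplatin (-0.54 ± 0.085, adjusted p = 3.1e-06). Cisplatin against DMSO was not called (-0.16 ± 0.084, adjusted p = 0.13), nor was the interaction (0.08 ± 0.12, adjusted p = 0.65).

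Ifngr1, the ligand-binding chain of the interferon gamma receptor, was highest with cisplatin. Its cisplatin libraries lay within 54.2 to 56.2 CPM (median 54.7), the narrowest group of the gene, above all other libraries. DMSO libraries ran from 35.7 to 44.1 CPM (median 41.0), AU-15330 libraries from 36.5 to 41.9 (median 38.6) and those with both drugs from 40.1 to 48.0 (median 42.4), and these 3 groups overlap. Cisplatin raised it 1.35-fold (log2 0.44 ± 0.059, edgeR adjusted p = 8.4e-07). With AU-15330 added to cisplatin it was 1.27-fold lower (-0.35 ± 0.058, adjusted p = 9.2e-06), while AU-15330 against DMSO was not called (-0.06 ± 0.059, adjusted p = 0.36). The interaction was -0.29 ± 0.083 with adjusted p = 0.0091. Both drugs against AU-15330 gave 0.15 ± 0.059 with adjusted p = 0.046, a call that was lost when any 1 replicate number was left out (0.09 to 0.15, adjusted p from 0.059 to 0.21), with DESeq2's size factors (adjusted p = 0.072) and without the low-count filter (adjusted p = 0.24).

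Ifngr2, the chain that completes the interferon gamma receptor, fell with AU-15330 as Ifnar2 did. It ran from 77.0 to 86.0 CPM in DMSO (median 80.4), 80.4 to 105 with cisplatin (median 89.2), 50.5 to 59.6 with AU-15330 (median 57.0) and 55.8 to 70.5 with both drugs (median 59.6). No library with AU-15330 reached the lowest one without it. The change was -0.54 ± 0.067 (log2) against DMSO, or 1.45-fold lower, and -0.57 ± 0.066 against cisplatin, or 1.49-fold lower, with edgeR adjusted p = 7.2e-08 and 2.6e-08. The cisplatin and DMSO groups overlap, and the small rise between them (0.17 ± 0.066, adjusted p = 0.035) was lost without replicate 1, 2, 4, 5 or 6, without the low-count filter (0.15, adjusted p = 0.13) and in a fit of those 2 groups alone (adjusted p = 0.096).

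Ifnar1, which gave no call, lies on the chromosome between Ifnar2 and Ifngr2, which fell. Of 10 genes listed as neighbours of the cluster, 8 could be tested, and with AU-15330 against DMSO 4 were higher and 4 lower, beside 36.2% and 37.2% of all tested genes. Tmem50b, which lies beside the cluster and encodes a membrane protein, fell the most (-1.73 ± 0.080, edgeR adjusted p = 2.1e-16), and Itsn1, an endocytic scaffold, was next lower (-0.48 ± 0.10, adjusted p = 0.00019). Donson, a replication factor, rose by 1.16 ± 0.12, and Gart, an enzyme of purine synthesis, by 0.78 ± 0.10. With cisplatin against DMSO 2 of the 8 were higher and 2 lower (26.0% and 25.7% of all tested genes), and the interaction was positive for 1 and negative for 2 (17.9% and 15.8%). These counts are not read as particular to the neighbours. Among other chains of the same receptor family, 4 of 6 could be tested and all 4 were lower with AU-15330, as were 37.2% of all tested genes, led by Il22ra1, a chain of the interleukin-22 receptor (-3.46 ± 0.14, adjusted p = 8.3e-18), and Ifnlr1, the chain that binds interferon lambda (-1.07 ± 0.11). The median of these 4 was -0.80 with AU-15330 and 0.14 with cisplatin, with 1 higher and 1 lower for cisplatin. Il10rb, a chain shared by receptors for interleukin-10 and interferon lambda and itself in the cluster, is in both lists.

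Jak1, the kinase used by both receptors, rose with AU-15330. It ran from 220 to 261 CPM in DMSO (median 235), 219 to 276 with cisplatin (median 262), 305 to 336 with AU-15330 (median 317) and 280 to 317 with both drugs (median 302). Libraries with AU-15330 all lay above those without it. The rise was 1.34-fold against DMSO (log2 0.42 ± 0.062, edgeR adjusted p = 1.1e-06) and 1.20-fold when AU-15330 was added to cisplatin (0.26 ± 0.062, adjusted p = 0.00072). Cisplatin against DMSO was not called (0.09 ± 0.062, adjusted p = 0.23), but passed without replicate 2 (0.16, adjusted p = 0.047) and with total-count scaling (0.16, adjusted p = 0.021).

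Tyk2, the kinase of IFNAR1, gave no call in the fit of the 4 group means. It ran from 42.3 to 64.0 CPM in DMSO (median 57.0), 42.0 to 65.2 with cisplatin (median 55.1), 43.6 to 60.8 with AU-15330 (median 56.2) and 41.1 to 52.7 with both drugs (median 50.9). Replicate 1 was the lowest library of all 4 groups. Both drugs against DMSO gave -0.18 ± 0.11 (adjusted p = 0.14), which became -0.25 with adjusted p = 0.0059 without replicate 1. Without that replicate number both drugs also gave a call against cisplatin (-0.23, adjusted p = 0.011) and against AU-15330 (-0.22, adjusted p = 0.028). AU-15330 and cisplatin alone gave -0.01 ± 0.11 and -0.007 ± 0.11, with signs that turn between alternatives.

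Stat2, the STAT protein particular to ISGF3, rose with each drug and was highest with cisplatin. It ran from 34.1 to 48.5 CPM in DMSO (median 41.5), 206 to 322 with cisplatin (median 240), 139 to 200 with AU-15330 (median 182) and 117 to 184 with both drugs (median 169). The DMSO libraries lie below all others, the cisplatin libraries above all others, and the 2 groups with AU-15330 overlap. Cisplatin raised Stat2 5.93-fold (log2 2.57 ± 0.13, edgeR adjusted p = 1.6e-14) and AU-15330 raised it 4.22-fold (2.08 ± 0.13, adjusted p = 1.1e-13). Both drugs together gave a 3.88-fold rise over DMSO (1.96 ± 0.13, adjusted p = 4.0e-13), which is 1.53-fold below cisplatin (-0.61 ± 0.12, adjusted p = 9.9e-05) and not distinguishable from AU-15330 (-0.12 ± 0.12, adjusted p = 0.45). The interaction was -2.69 ± 0.18 (adjusted p = 1.0e-11). In each treated group replicates 1 to 3 lay below replicates 4 to 6: 206 to 215 CPM against 265 to 322 with cisplatin, 139 to 167 against 197 to 200 with AU-15330, and 117 to 163 against 174 to 184 with both drugs.

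Irf9, the DNA-binding subunit of ISGF3, was highest with AU-15330. It ran from 15.2 to 20.8 CPM in DMSO (median 17.2), 85.7 to 106 with cisplatin (median 96.2), 117 to 134 with AU-15330 (median 122) and 77.4 to 102 with both drugs (median 95.8). AU-15330 libraries stand above all others and DMSO libraries below, while cisplatin and both drugs overlap. AU-15330 raised Irf9 7.08-fold (log2 2.82 ± 0.086, edgeR adjusted p = 6.0e-20) and cisplatin 5.53-fold (2.47 ± 0.085, adjusted p = 5.7e-18). With both drugs it was 5.30-fold above DMSO (2.41 ± 0.085), 1.34-fold below AU-15330 (-0.42 ± 0.079, adjusted p = 0.00013) and not distinguishable from cisplatin (-0.06 ± 0.079, adjusted p = 0.51). The interaction was -2.88 ± 0.12 (adjusted p = 3.4e-16). Replicates 1 to 3 lay below replicates 4 to 6 in all 4 groups of Irf9 too, for example at 15.2 to 16.5 CPM against 17.99 to 20.8 in DMSO and at 85.7 to 93.1 against 99.4 to 106 with cisplatin. What these replicate numbers share is not given in the sources used here. By group means the order was cisplatin, AU-15330, both, DMSO for Stat2 and AU-15330, cisplatin, both, DMSO for Irf9, in which the second and the third overlap for each gene.

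Socs1, the inhibitor, had the lowest level of the 9 genes. By group means its order was AU-15330, both, cisplatin, DMSO. This differs from the order of Irf9 only in the places of cisplatin and both drugs, which overlap for each gene. Socs1 ran from 1.43 to 1.92 CPM in DMSO (median 1.67), 4.49 to 5.27 with cisplatin (median 5.03), 7.36 to 10.6 with AU-15330 (median 9.35) and 4.21 to 9.14 with both drugs (median 6.62). All treated libraries were above all DMSO libraries, and AU-15330 libraries above all cisplatin libraries, while the group with both drugs overlaps each. The rise was 5.51-fold with AU-15330 (log2 2.46 ± 0.15, edgeR adjusted p = 9.3e-14), 3.00-fold with cisplatin (1.58 ± 0.15, adjusted p = 3.7e-09) and 3.92-fold with both (1.97 ± 0.15, adjusted p = 9.8e-12). Both drugs against AU-15330 gave -0.49 ± 0.13 (adjusted p = 0.0047) and the interaction -2.07 ± 0.20 (adjusted p = 2.0e-08). Both against cisplatin gave 0.39 ± 0.14 (adjusted p = 0.014), which was lost without replicate 4 (0.27, adjusted p = 0.10), 5 (0.37, adjusted p = 0.053) or 6 (0.34, adjusted p = 0.073).

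**Figure D2:**
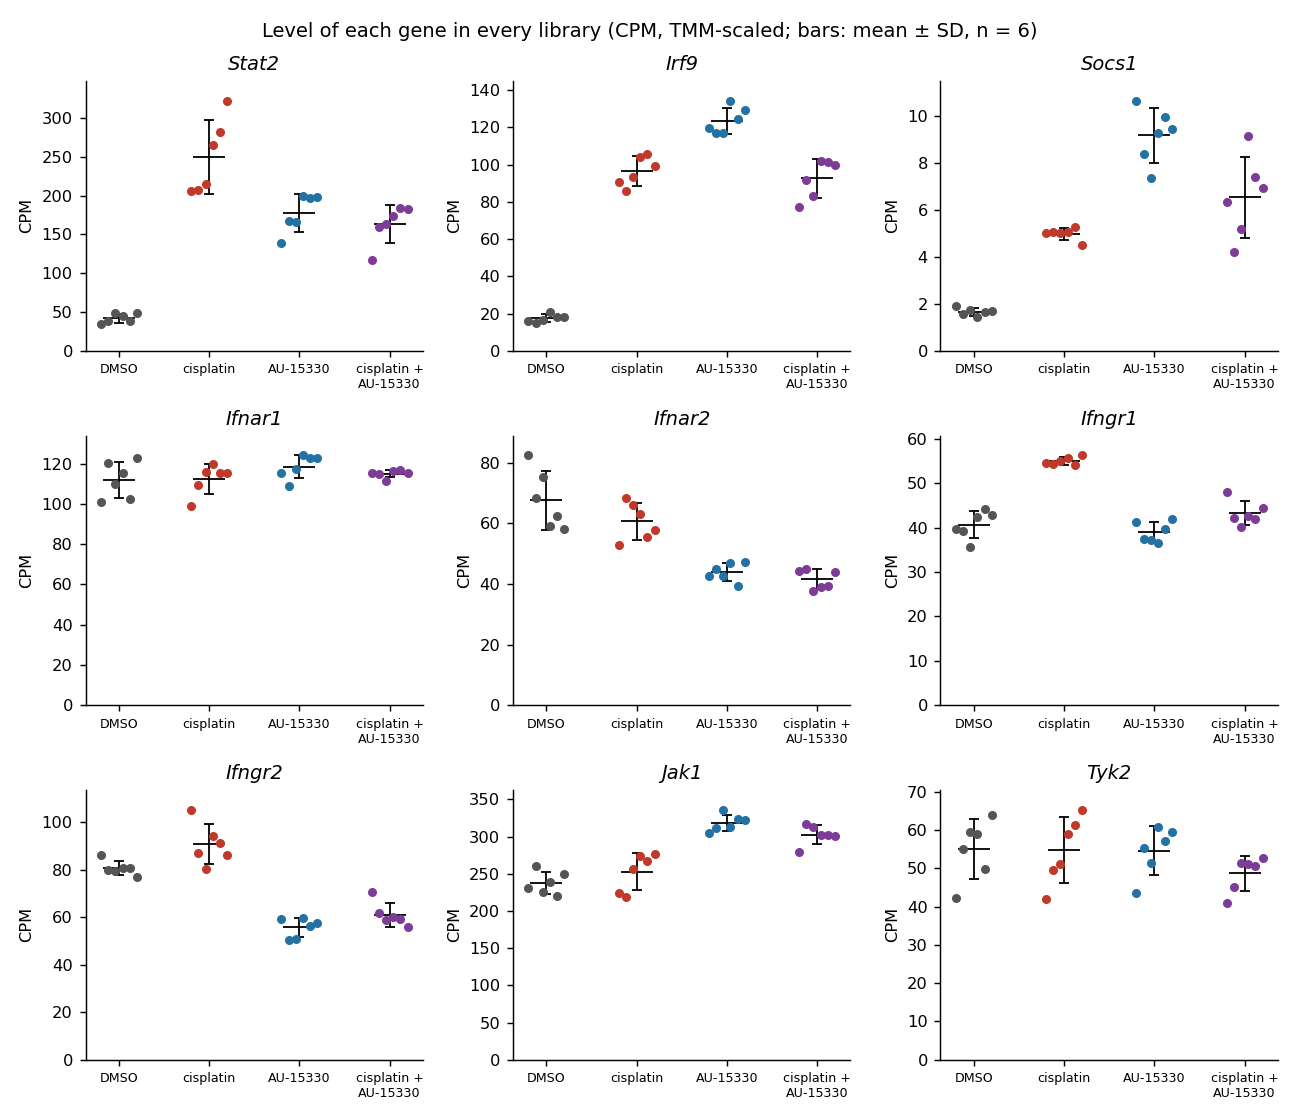
Level of each gene (y axis, CPM with TMM scaling, from 0) in the 24 libraries, 6 for each treatment (x axis); points are libraries in order of replicate number, and bars give the mean and SD. Stat2, Irf9 and Socs1 are low in DMSO and high in all treated libraries, Ifnar2 and Ifngr2 are lower and Jak1 higher with AU-15330, Ifngr1 is highest with cisplatin, and Ifnar1 and Tyk2 overlap in all 4 groups.

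Between genes, levels were compared as CPM per kb of exon sequence. In DMSO the kinase and the receptor chains led and the factors were low: Jak1 was at 32.9 ± 2.1 CPM per kb (SD, n = 6), Ifngr2, Ifnar2 and Ifnar1 overlapped at means of 18.8 to 21.4, Ifngr1 followed at 14.3 ± 1.1, and Tyk2 and Stat2 overlapped at 8.004 ± 1.1 and 7.10 ± 0.98. Irf9 came at 3.24 ± 0.38 and Socs1 at 0.573 ± 0.056. With cisplatin Stat2 reached 42.2 ± 8.1 and overlapped Jak1 at 35.0 ± 3.5, and Irf9, at 17.9 ± 1.5, overlapped Ifnar2. With AU-15330 Jak1 led at 44.1 ± 1.5, and Stat2 (30.0 ± 4.2) and Irf9 (22.96 ± 1.3) overlapped each other above the 4 receptor chains. With both drugs Jak1 (41.8 ± 1.8) and Stat2 (27.6 ± 4.2) came first and second without overlap, and Socs1 was last in all 4 treatments.

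Partners that work together did not keep 1 ratio of transcripts. Stat2 per kb was 2.19 times Irf9 in DMSO (geometric mean, libraries from 1.92 to 2.65) and 2.32 times with cisplatin (2.07 to 2.95), but 1.30 times with AU-15330 (1.05 to 1.44) and 1.59 times with both drugs (1.37 to 1.79). Ifnar1 was 0.934 times Ifnar2 in DMSO (0.687 to 1.19), 1.04 times with cisplatin (0.895 to 1.16), 1.51 times with AU-15330 (at most 1.74) and 1.55 times with both (1.43 to 1.67). For each of these pairs the libraries with and without AU-15330 do not overlap. The ratio of Ifngr1 to Ifngr2 was 0.666, 0.805, 0.928 and 0.938 in the same order of treatments, and the libraries with AU-15330 (0.809 to 1.05) overlap those without it (0.595 to 0.904). That of Jak1 to Tyk2 was 4.14, 4.42, 5.57 and 5.92, and here too the libraries with and without AU-15330 overlap, from 4.89 to 6.68 against 3.61 to 5.18. The ratios rest on the same counts as the tests above and were not tested.

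**Figure D3:**
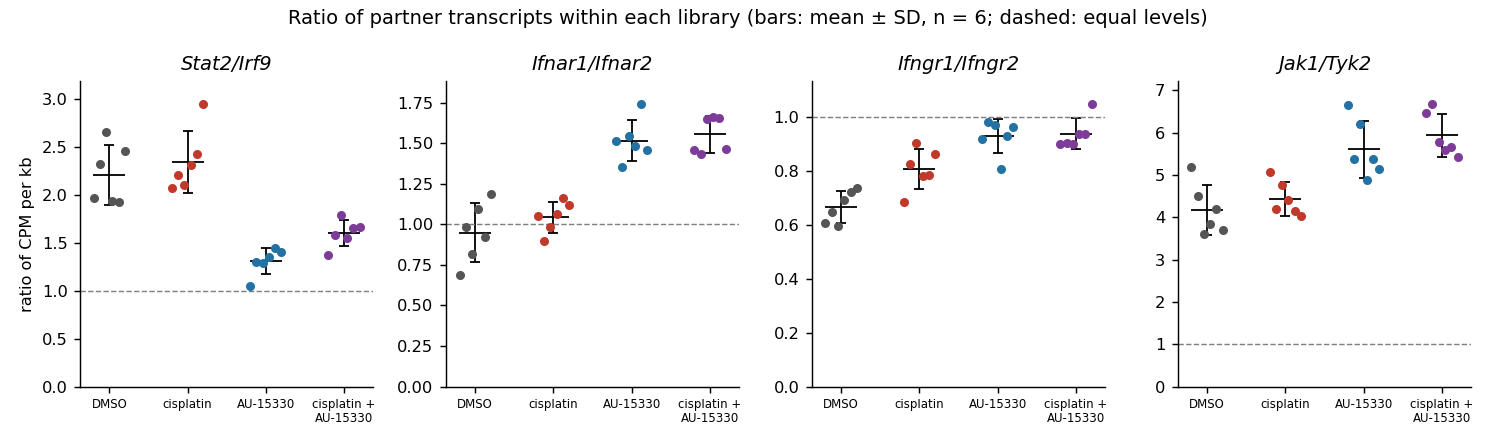
Ratio of CPM per kb between partner genes (y axis, from 0) in each library by treatment (x axis); bars give the arithmetic mean and SD of 6 libraries and the dashed line marks equal levels. With AU-15330, alone or with cisplatin, Stat2 is closer to Irf9 (1.05 to 1.79) and Ifnar1 exceeds Ifnar2 in every library (up to 1.74).

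Over the 24 libraries the tested genes most like Stat2 (Pearson correlation of log2 CPM) were Trim12c (0.99), Oas1b (0.98), of the family of antiviral oligoadenylate synthetases, and Oasl2 (0.98), of the same family. Those most like Irf9 were Ddx60 (0.99), an antiviral helicase, Irgm2 (0.99), an interferon-inducible GTPase, and Parp9 (0.99). Those most like Socs1 were Tmeff2 (0.97), Ifi35 (0.97), an interferon-induced protein, and Gm6548 (0.97). The points share the 4 treatments, so these values mostly describe the order of the group means. Among the 9 genes themselves, Stat2 and Irf9 had r = 0.95, Irf9 and Socs1 0.95, and Stat2 and Socs1 0.82.

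Of 12 listed target genes of ISGF3, all tested, 12 were higher with cisplatin (median log2 fold change 5.12), beside 26.0% of all tested genes. The highest fitted values were those of Ifit3 (8.02 ± 0.33) and Ifit1 (7.83 ± 0.29), which encode antiviral RNA-binding proteins. Ifit3 had 1 to 16 counts per library in DMSO, down to below the floor of 3 counts, and Ifit1 8 to 34, so the sizes of these values rest on few control counts. The smallest of these rises were those of Mx1, an antiviral GTPase (2.24 ± 0.24), and Dhx58, a regulator of RNA sensing (3.68 ± 0.15). With AU-15330, 10 were higher and 2 lower (median 4.06; 36.2% and 37.2% of all tested genes), and Isg15, a ubiquitin-like protein (7.16 ± 0.20), and Rtp4 (5.37 ± 0.18) led the rises. In the same comparison Ifi44 fell by 0.99 ± 0.23 (edgeR adjusted p = 0.00037) and Mx1 fell (adjusted p = 3.3e-11), while Stat2 and Irf9 were higher. Mx1 had 40 to 125 counts per library in DMSO, 325 to 541 with cisplatin, 0 to 4 with AU-15330 and 1 to 5 with both drugs. The groups with AU-15330 are thus near the floor of 3 counts, and no fold is given for Mx1 against them.

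Adding AU-15330 to cisplatin lowered 9 of the 12 targets and raised 2 (median -0.95; 32.7% and 35.4% of all tested genes), with Mx1 among the lower ones, from Ifi44 (-5.88 ± 0.19) to Xaf1 (0.50 ± 0.09) and Isg15 (0.69 ± 0.14). Adding cisplatin to AU-15330 raised 4, led by Rsad2 (2.16 ± 0.22) and Ifit3 (2.01 ± 0.29), and lowered 6, Dhx58 (-0.64 ± 0.12) and Isg15 (-0.49 ± 0.14) the most, beside 22.2% and 19.5% of all tested genes. Both drugs against DMSO left 10 higher and 1 lower (36.8% and 36.5% of all tested genes), and the interaction was negative for 12 of 12 (median -4.87; 15.8% of all tested genes), from Ifit1 (-7.08 ± 0.35) and Isg15 (-6.47 ± 0.23) to Dhx58 (-4.32 ± 0.19), with Mx1 left aside because its value (adjusted p = 0.045) rests on groups near the floor.

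Target genes of interferon gamma, 12 in the list and 10 of them tested, gave 10 higher with cisplatin, 9 higher and 1 lower with AU-15330, and 9 higher with both drugs against DMSO, where 26.0%, 36.2% and 36.8% of all tested genes were higher. Gbp5, a guanylate-binding GTPase, was at 0 counts in the 6 DMSO libraries and at a mean of 2.28 CPM with cisplatin, at least 12.3-fold higher against the floor of 3 counts in 1 library. Nlrc5, a regulator of MHC class I genes, had 0 to 2 counts per library in DMSO, also under the floor, and a mean of 1.63 CPM with cisplatin. With the DMSO level of both genes set to the floor, the median log2 fold changes of the 10 were 3.28, 2.67 and 2.82. These are lower limits. The medians with both genes as fitted were 3.63, 4.06 and 3.56, which puts the treatments in another order. The order of the treatments is therefore not read from these medians. Gbp3, with 1 to 21 counts per library in DMSO, reaches below the floor in part of its control libraries. Icam1, an adhesion molecule, was the gene that fell with AU-15330 (-1.09 ± 0.12, edgeR adjusted p = 1.0e-08). AU-15330 added to cisplatin raised 2 and lowered 5 (35.4% and 32.7% of all tested genes), cisplatin added to AU-15330 raised 4 and lowered 3 (22.2% and 19.5%), and the interaction was negative for 9 (15.8%). Ciita and Cxcl9 did not pass the low-count filter, with at most 23 and 4 counts in a library.

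**Figure D4:**
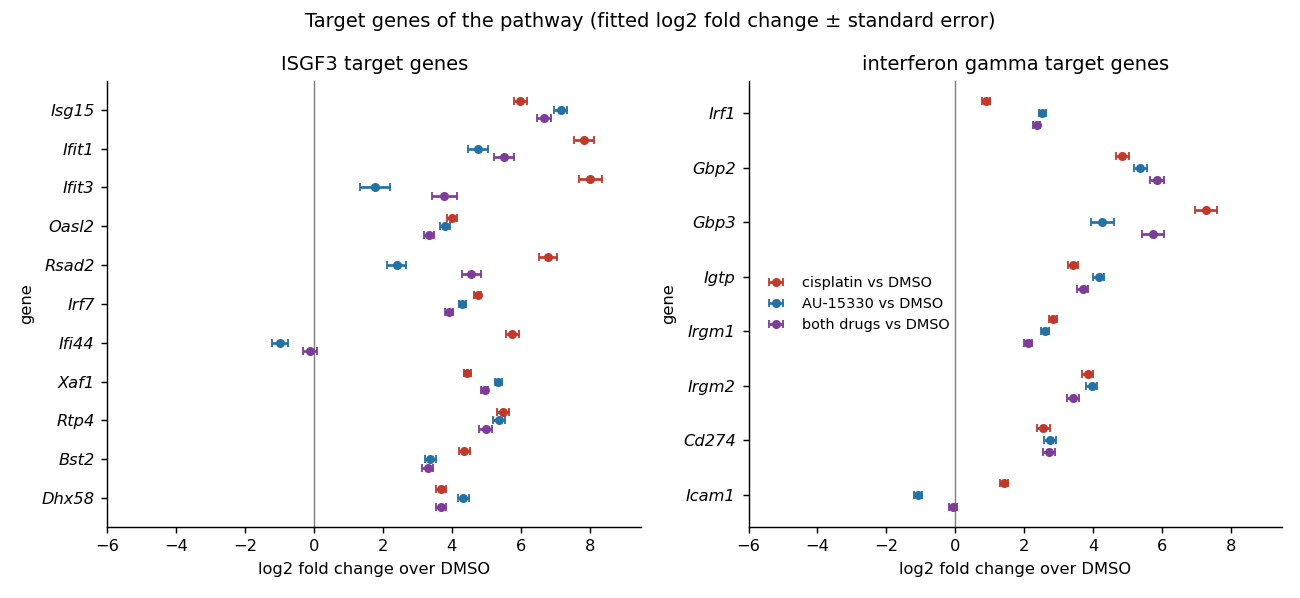
Fitted log2 fold change over DMSO (x axis, ± standard error) for 11 of the 12 listed ISGF3 target genes and 8 of the 10 tested interferon gamma target genes, with cisplatin, AU-15330 or both drugs; Mx1, Gbp5 and Nlrc5 are left out because the mean of a group lies under the floor of 3 counts, and single DMSO libraries of Ifit3 and Gbp3 go down to 1 count. All points for cisplatin lie to the right of 0, and Ifi44 and Icam1 lie to the left with AU-15330.

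Transcripts of the ligands were at or near 0. Of 19 listed interferon genes, 12 had 0 counts in all 24 libraries, and their summed counts were 0 to 7 per library in DMSO, 2 to 9 with cisplatin, 4 to 16 with AU-15330 and 1 to 8 with both drugs. Ifnb1, the beta interferon, had 0 counts in the 6 DMSO libraries, 2 to 6 in each cisplatin library (24 in all), 0 to 2 with AU-15330 (2 in all) and 0 to 3 with both drugs (4 in all), so DMSO and cisplatin do not overlap. Ifne, an epithelial type I interferon, had 0 to 6 counts in DMSO, 0 to 3 with cisplatin, 4 to 16 with AU-15330 and 0 to 8 with both drugs. Both were named after their counts were seen, and no ligand was tested, since none passed the filter. The table measures RNA in the cells at 6 days and not ligand in the medium or ligand made earlier.

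Among 16 negative regulators other than Socs1, 1 was higher with cisplatin and 4 lower (median -0.05), beside 26.0% and 25.7% of all tested genes. The gene that rose was Usp18, a protease that removes ISG15 and blocks IFNAR2 (6.75 ± 0.22, edgeR adjusted p = 3.0e-18), a size that rests on 3 to 22 counts per library in DMSO, and the 4 that fell encode other SOCS proteins: Socs2 (-0.79 ± 0.12), Socs3 (-0.67 ± 0.09), Socs5 (-0.65) and Socs6 (-0.26). With AU-15330, 4 were higher and 8 lower (median -0.15; 36.2% and 37.2% of all tested genes). Usp18 (6.35 ± 0.22) and Pias3, an inhibitor of STAT binding (0.67 ± 0.07), rose the most, and Ptpn6, a phosphatase (-2.63 ± 0.16), and Cish (-1.77 ± 0.11) fell the most. With both drugs against cisplatin 6 were higher and 7 lower (35.4% and 32.7% of all tested genes), against AU-15330 2 and 6 (22.2% and 19.5%), and against DMSO 6 and 9 (36.8% and 36.5%), and the interaction was positive for 4 and negative for 2 (17.9% and 15.8%), with Usp18 at -7.19 ± 0.27. Among the SOCS genes with AU-15330, Socs2 (-0.73), Socs3 (-0.34), Socs5 (-1.41) and Socs6 (-0.35) were also lower, and Socs7 was called higher (0.28 ± 0.09, adjusted p = 0.0066).

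Of 7 listed relatives among the STAT and JAK genes, 6 were tested, and with cisplatin 2 were lower, Jak3 (-0.53 ± 0.13) and Stat6 (-0.17 ± 0.07), beside 25.7% of all tested genes. With AU-15330, 3 were higher and 2 lower, beside 36.2% and 37.2% of all tested genes: Stat3 (1.18 ± 0.07) and Stat6 (0.57 ± 0.07) rose the most, and Stat5b (-0.67 ± 0.09) and Stat5a (-0.39 ± 0.06) fell. With both drugs against cisplatin 3 were higher and 3 lower (35.4% and 32.7%), against AU-15330 5 were lower (19.5%), and against DMSO 2 were higher and 3 lower (36.8% and 36.5%). The interaction was negative for 1 (15.8%), Stat5a (-0.34 ± 0.08).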

How the data were processed

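RNA was sequenced from 24 poly(A)-selected directional libraries. Per the labels and methods, the authors aligned reads to mm10 with STAR 2.7.1a; the submitters' notes also name DESeq2 1.36.0. The counting tool, strand setting and annotation are not given in the sources used here. The deposited values are raw counts per gene symbol, in 48 columns, 2 lanes for each library, which the authors did not normalize. Lanes were summed: a chi-square over genes, divided by its degrees of freedom, was at most 1.46 between lanes and at least 2.26 between replicates, so no library was present more than once.

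Counts were fitted with edgeR 4.0.16 (R 4.3.3): TMM scaling, filterByExpr (12941 genes kept), 1 fit of 4 group means (20 residual degrees of freedom), the quasi-likelihood F test, and Benjamini-Hochberg adjustment over all tested genes at 0.05. The prior count was 2 for log2 CPM. The scripts were tested on simulated data. Lengths (exon union) and positions came from GENCODE M21, which is on the same assembly as mm10, and promoters from RefSeq (GRCm38.p6), in which all 9 genes matched by symbol. Alternatives were DESeq2 1.42.0, other scaling, no filter, a replicate block, fits of the groups compared, a fold threshold of 1.5 and leaving out each replicate number.

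The genes, the lists and the tests were chosen with earlier results of these data known, so counts over the lists are descriptions. Named genes are the 9 chosen ones, the 2 highest and 2 lowest called genes of a list in a comparison, genes at or near 0 counts, and the 3 genes most like Stat2, Irf9 and Socs1. Il10rb, Socs5, Socs6, Socs7 and the genes under the filter were named after their values were seen. The list of STAT and JAK relatives had 1 more gene, which is not reported here. Floors cover counting error only.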

Additional observations from a re-analysis of the deposited data

Results flagged for a closer look

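The effect of AU-15330 differed with and without cisplatin for 4 of the 9 genes, by the interaction term of the edgeR fit, which was negative for 15.8% and positive for 17.9% of all tested genes: Stat2 (-2.69), Irf9 (-2.88), Socs1 (-2.07) and Ifngr1 (-0.29), on the log2 scale. For the first 3 each drug alone raised the level and both drugs together did not exceed the higher of the single drugs. For Ifngr1 the level with both drugs was below that with cisplatin.

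Single libraries stood apart from the other 5 of their group in 3 of 36 groups examined with Dixon's ratio of gap to range, where chance alone gives about 1.8. Stat2 in replicate 1 with both drugs was the lowest, at 117 CPM against 160 to 184 CPM (ratio 0.639), and without that replicate number its change against cisplatin was -0.62. Socs1 in replicate 6 with cisplatin was at 4.49 CPM against 5.02 to 5.27 CPM (ratio 0.671). Ifnar1 in replicate 3 with both drugs was at 111 CPM against 115 to 117 CPM (ratio 0.680). The cause of these was not tested.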

How the results depend on the processing

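Of 693 log2 values of the 9 genes under the alternatives, 624 kept their direction and their side of the threshold, 36 lost a call, 14 gained one and 19 changed sign; every sign change was of a value that was not called, and 18 of the lost calls came from the fold threshold. The calls for Stat2, Irf9 and Socs1 for each drug against DMSO and in the interaction held in all alternatives run. A test for a fold above 1.5 left 3 of the 9 genes higher with cisplatin against DMSO; 0 lower with AU-15330 and with both drugs against DMSO; 0 higher and 0 lower with both drugs against cisplatin and against AU-15330. It called 1789 genes in all for cisplatin (1422 higher, 367 lower), 4657 for AU-15330, 3803 and 842 for both drugs against cisplatin (1459 higher, 2344 lower) and AU-15330 (721 higher, 121 lower), 4683 against DMSO, and 926 for the interaction (342 higher, 584 lower). With both drugs against AU-15330, 0 of the 9 were higher with DESeq2's size factors, without the low-count filter, and in each fit without 1 replicate number (0 to 0). Without 1 replicate number, 1 to 2 were higher with both drugs against cisplatin.

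Replicate numbers recur across treatments, and nothing in the labels says what they share. The criterion for pairing, every same-numbered pair over 0.1, was not met: 23 of 36 same-numbered pairs had correlated deviations over 0.1 (lowest -0.133, mean 0.145, other pairs -0.027). Of the 24 libraries, 10 correlated best with their own number. Whether same-numbered libraries share a source was not tested. A replicate block moved the genes called from 6689 to 7354 for cisplatin, 9497 to 9966 for AU-15330 and 4361 to 5303 for the interaction. With the block 2 of the 9 were higher with both drugs against AU-15330 (Ifngr1 and Ifngr2), where it called 3229 genes higher and 2956 lower of 12941, and Tyk2 was called lower in the 3 comparisons of both drugs (-0.16 to -0.17, adjusted p from 0.015 to 0.031), while Stat2 with both drugs against AU-15330 stayed without a call (-0.13, adjusted p = 0.16).

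Signs that turned belonged to values near 0. Tyk2 became 0.006 (DESeq2 size factors), 0.064 (total counts) and 0.004 (DESeq2 test) with cisplatin, where leaving out a replicate gave -0.072 to 0.060, and 0.12 (total counts) with AU-15330, where leaving one out gave -0.047 to 0.040. Total-count scaling, which moved the median of all genes to 0.13 for AU-15330 and 0.14 for both drugs against DMSO, gave 0.067 for Ifngr1 with AU-15330 and 0.006 for Irf9 with both drugs against cisplatin. Ifnar1 became -0.018 with cisplatin and -0.016 with both drugs against DMSO without the filter. Leaving out a replicate gave Ifnar1 -0.029 to 0.035 with cisplatin, -0.042 to 0.045 with both drugs against cisplatin and -0.044 to 0.061 against DMSO, Ifngr1 -0.007 to 0.12 with both against DMSO, and Ifnar2 -0.071 to 0.155 in the interaction. The cause of these shifts was not tested. Depth limits Socs1, at 31 to 36 counts per DMSO library, and the ligands.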
